A study of Saccharomyces cerevisiae with 6 samples.

Results

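In budding yeast without MSS11, 57 of the 9275 non-control probe sets on the array gave at least 2-fold more signal than in yeast without FLO8, and the deleted gene FLO8 headed them. Behind it stood genes that take up, make and recycle sulfur-containing amino acids, with 12 of the 36 members that could be assigned to 1 gene. These 12 cover 11 genes of a list drawn up after the members had been seen. Members were 23.5% of its 51 probe sets, against 0.615% of all probe sets. In limma (adjusted p below 0.05) 29 of the 51 were higher and 9 lower, against 28.2% and 12.1% of all probe sets. The members were chosen by 2 conditions on the log2 values. The mean of the mss11 deletion arrays had to exceed the mean of the flo8 deletion arrays by at least 1, and both mss11 deletion values had to lie above all 4 flo8 deletion values. Because these values chose the members, the sizes below are descriptions, and no test of this difference supports them.

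RNA came from homozygous diploid Saccharomyces cerevisiae of the filamentous strain Y825/6 (sigma 1278b background). One group lacked FLO8 (4 arrays) and the other lacked MSS11 (2 arrays), each gene being replaced by a G418 resistance cassette, which both groups therefore carry. Cultures in rich medium (30 °C, optical density 0.6) were washed and transferred to SLAD medium, which holds 50 µM ammonium sulfate and 2% glucose, and were profiled on Affymetrix Yeast Genome S98 arrays. The time in that medium, the auxotrophies of the strains and whether the replicates were independent cultures or clones were not given in the sources used here. No array of an undeleted strain was analysed, so "higher" means higher without MSS11 than without FLO8.

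Flo8 and Mss11 are transcriptional activators that act together at the promoter of FLO11, which encodes the cell-wall glycoprotein of filamentous growth, and Flo8 works downstream of the cyclic AMP pathway. Sulfur assimilation is a separate pathway. Sulfate is imported, reduced to sulfide and joined to a carbon skeleton to give homocysteine, methionine and cysteine, and cells can also import methionine, cysteine, glutathione and S-adenosylmethionine. Its genes are switched on by Met4, an activator that reaches DNA through Cbf1, Met28, Met31 and Met32 and is held back by the ubiquitin ligase subunit Met30.

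Of the 57 members, 36 were paired with 1 gene by the platform annotation, covering 35 genes. The other 21 were not listed there and stay unnamed, among them the third largest rise. Over the whole array 6504 probe sets had 1 gene, 328 had several and 2443 were not listed. Members made up 0.615% of the probe sets, against 6.12% (568) that met the same conditions in the opposite direction. In limma, 53 of the 57 passed at an adjusted p of 0.05, where 28.2% of all probe sets passed as higher. Nothing can be read from that share, since the rule used the same arrays. The 4 that did not pass were MET28, YOL163W, TPO3 and DOG1.

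The checks of the deletions came out as labelled. FLO8 read 3.32, 3.28, 3.31 and 3.37 in flo8 deletion replicates 1 to 4 and 8.20 and 8.25 in the mss11 deletion arrays, a difference of 4.90 ± 0.04 (log2, SE). The flo8 deletion values lay at the top of the range of the 28 foreign and antisense control probe sets, whose means there ran from 0.94 to 3.33. A second FLO8 probe set read 2.71 to 2.74 without FLO8 and 2.82 and 2.89 without MSS11, inside that range throughout. MSS11 read 6.23, 6.81, 6.66 and 6.49 in the flo8 deletion and 2.95 and 3.51 in the mss11 deletion, and it fell by 3.32 (limma adjusted p = 0.0009). FLO8 is a member because it is deleted in the group it is compared with. The second largest member, MET32, had a fold of 4.00.

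**Figure D1:**
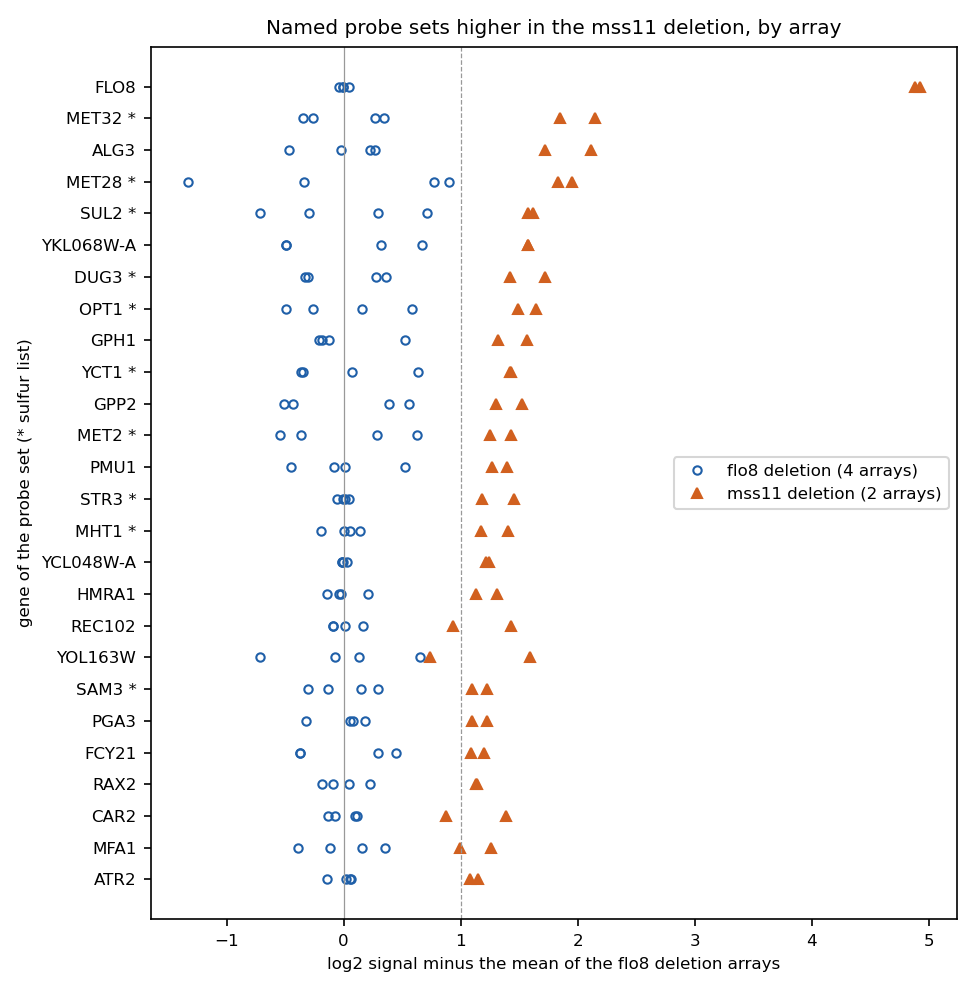
Log2 signal of the 26 members named by rule, each array minus the mean of the 4 flo8 deletion arrays (circles: flo8 deletion; triangles: mss11 deletion; asterisk: on the sulfur list). FLO8 stands apart at 4.90, and the triangles of YOL163W and the circles of MET28 spread most.

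The sulfur regulators came first by size. MET32, a zinc-finger protein that brings Met4 to its target promoters, read 8.03, 7.42, 8.11 and 7.50 in the flo8 deletion and 9.91 and 9.62 in the mss11 deletion. That is a difference of 2.00 ± 0.24 (log2, SE), with a gap of 1.51 between the nearest arrays of the 2 groups. MET28, the bZIP cofactor of the Met4 complex, read 8.76, 7.65, 8.90 and 6.66 against 9.82 and 9.95. Its difference of 1.89 ± 0.67 (SE) did not pass, because the flo8 deletion arrays themselves ranged over more than 4-fold.

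Uptake genes formed the largest sulfur group. SUL2, a high-affinity sulfate permease, read 9.38, 8.79, 9.79 and 8.37 in the flo8 deletion and 10.70 and 10.66 in the mss11 deletion (difference 1.60 ± 0.41, SE). OPT1, a plasma membrane transporter of glutathione and oligopeptides, read 9.79, 9.37, 10.22 and 9.14 against 11.27 and 11.12. For YCT1, a cysteine transporter, the values were 7.70, 7.29, 8.27 and 7.27 against 9.05 and 9.06. In all 3 the mss11 deletion arrays lay close together while the flo8 deletion arrays had standard deviations of 0.63, 0.48 and 0.47 (n = 4), with replicates 1 and 3 above 2 and 4.
MUP1, the high-affinity methionine permease, read 11.52, 10.97, 11.64 and 11.05 against 12.28 and 12.40. It is one of 10 named members outside the naming rule and was picked after its values were seen. It was the member with the highest starting signal.

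Members among the enzymes of methionine synthesis and of glutathione breakdown followed. MET2, homoserine O-acetyltransferase, which makes the carbon acceptor for sulfide, read 10.49, 9.84, 10.83 and 9.66 against 11.64 and 11.46. STR3, cystathionine beta-lyase, which turns cystathionine into homocysteine, read 10.12, 10.02, 10.09 and 10.07 against 11.53 and 11.26. Its flo8 deletion arrays agreed to within a standard deviation of 0.04 (n = 4), the tightest of the sulfur members, and its difference was 1.32 ± 0.08 (SE). MHT1, which methylates homocysteine with S-methylmethionine, read 8.75 to 9.08 against 10.35 and 10.12. DUG3, a subunit of the complex that degrades glutathione in the cytosol, read 7.31, 6.73, 7.39 and 6.70 against 8.75 and 8.46. For MET32, STR3, MHT1 and DUG3 the lowest mss11 deletion value was at least 1 above the highest flo8 deletion value, as in 15 of the 57 members (0.162% of all probe sets).

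A list of 44 sulfur genes was then read as a whole. It was drawn up after the members had been seen, so its counts describe these arrays and are no independent evidence. All 44 genes were measured, by 51 probe sets. Of these, 29 passed as higher and 9 as lower in limma, and 13 did not pass; over all probe sets 28.2% passed as higher and 12.1% as lower. The median difference of the list was 0.38, against 0.11 over all probe sets. Members were 23.5% of the list, against 0.615% of all probe sets.
The reductive branch moved by less than the membership threshold. MET5, a subunit of sulfite reductase, rose by 0.99 ± 0.08 (SE; limma adjusted p = 0.0013), just outside the rule. MET10, the other subunit, differed by only 0.09 ± 0.07 (SE) and did not pass (limma adjusted p = 0.35). MET14, adenylylsulfate kinase, rose by 0.89 ± 0.11 (SE; limma adjusted p = 0.0045). Of 10 probe sets for uptake and reduction of sulfate, 7 passed as higher and 1 as lower. Of 13 for synthesis of methionine, cysteine and S-adenosylmethionine, 8 passed as higher and 5 did not pass, with a median difference of 0.27. Of 11 for glutathione and other sulfur sources, 4 passed as higher and 4 as lower, with a median of 0.05. The lower ones were probe sets of JLP1 and BDS1. Of the 6 regulators, 3 passed as higher (MET32, MET4 and MET30) and CBF1 fell by 0.85.

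Not all sulfur genes went the same way. SUL1, the second sulfate permease, fell by 0.86 (SE 0.24; limma adjusted p = 0.041), from 11.07, 11.09, 10.68 and 11.41 to 10.48 and 9.93. JLP1, a dioxygenase that releases sulfite from sulfonates, fell by 2.07 (SE 0.18; limma adjusted p = 0.0017). BDS1, an alkyl- and arylsulfatase, had 3 probe sets that fell by 2.22 to 7.11 and another at -0.17 ± 0.20 (SE), which did not pass. Probe sets of BDS1 and SAM3 thus made up 6 of the 9 lower calls, while other probe sets of the same genes did not fall. The annotation may pair some of them with the wrong gene or strand, which was not tested. The count of higher sulfur probe sets was 22 with the median strain difference subtracted, against 29 as deposited, and it was also lower without either mss11 deletion array. How many of all probe sets passed under these settings is not given. Without mss11 deletion replicate 1 or 2 the median difference of the list was 0.38 and 0.45, against 0.12 and 0.09 over all probe sets.

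**Figure D2:**
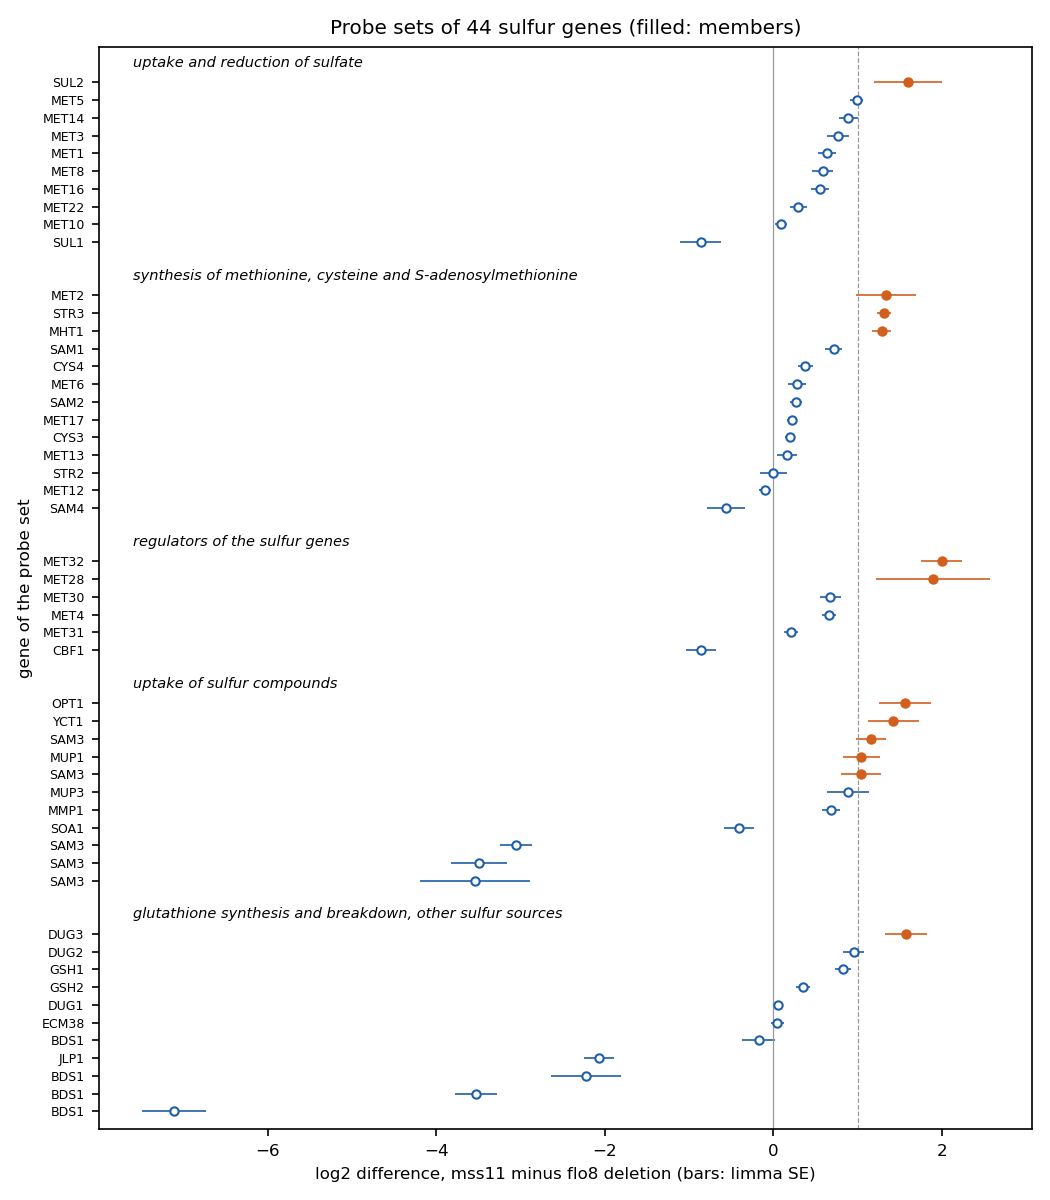
Log2 difference (mss11 minus flo8 deletion) of the 51 probe sets of 44 sulfur genes, by role, with the limma standard error as bars; filled points are the 12 members and the dashed line marks a difference of 1. The 29 that passed as higher lie right of 0, and the 9 that passed as lower belong to SUL1, CBF1, JLP1, BDS1 and SAM3.

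SAM3, the S-adenosylmethionine permease, gave opposite readings from its 5 probe sets. One member probe set read 9.48, 9.03, 9.63 and 9.21 in the flo8 deletion and 10.57 and 10.43 in the mss11 deletion, and a second was higher by 1.04 ± 0.24 (SE). The other 3 had differences of -3.05, -3.49 and -3.54 and passed as lower; the last read 9.54 to 9.69 in the flo8 deletion and 7.29 and 4.83 in the mss11 deletion. Which of them reports the SAM3 transcript was not tested. Of the 35 member genes, 6 had further probe sets, 11 in all, of which 5 passed as higher, 3 as lower and 3 did not pass.
For ALG3, a mannosyltransferase of N-glycan assembly, the member (an _i_at probe set) read 4.72, 4.28, 4.97 and 5.02 against 6.86 and 6.47. The other ALG3 probe sets differed by 0.49 ± 0.05 and 0.07 ± 0.12 (SE), well short of 1.92. YPR078C, of unknown role, showed the same order, with 1.00 in its _i_at probe set and 0.42 and 0.11 in the others. A member therefore did not always speak for its gene.

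**Figure D3:**
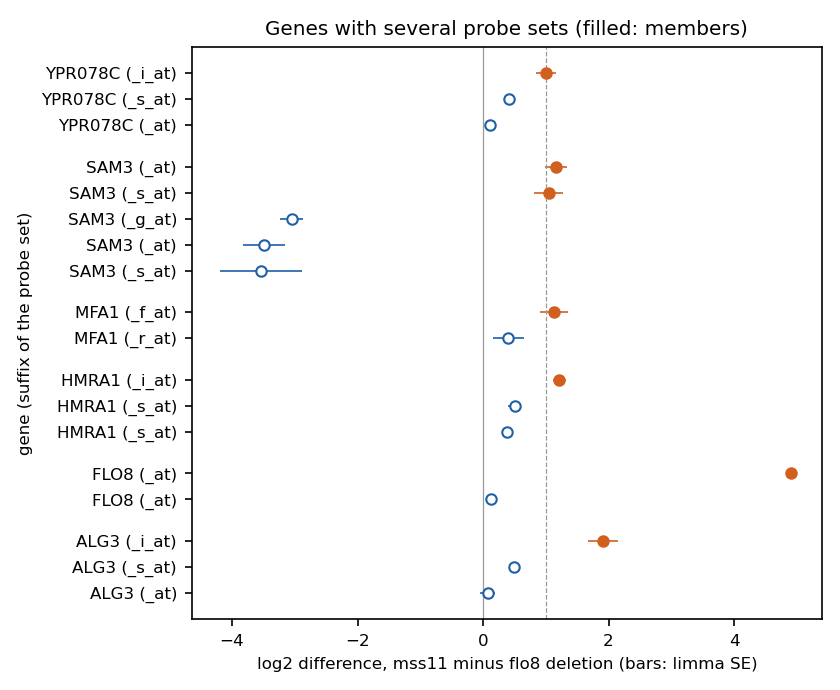
Log2 difference (mss11 minus flo8 deletion) of each probe set of the 6 member genes that have several, with the limma standard error as bars; filled points are members. The non-members lie below the members of the same gene because the rule asked for a difference of at least 1. The 3 lowest SAM3 probe sets lie below -3.

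Mating-type and meiotic genes were also among the members. HMRA1, which shares its sequence with the a1 gene of the active mating-type locus, read 4.65, 4.53, 4.63 and 4.88 against 5.98 and 5.80 in its member probe set, and its other probe sets rose by 0.39 and 0.51. MFA1, which encodes a-factor, read 5.57, 5.30, 5.76 and 5.03 against 6.41 and 6.68. The other MFA1 probe set differed by 0.40 ± 0.25 (SE), with overlapping groups, and did not pass (limma adjusted p = 0.22). Diploids of both mating types are known to shut off haploid genes. Of the 22 probe sets for 19 mating-type and haploid genes, 11 passed as higher and 1 as lower, with a median difference of 0.29. Over all probe sets 28.2% passed as higher and 12.1% as lower, with a median of 0.11. Their summed linear signal was 2347 to 2936 in the flo8 deletion arrays and 3589 and 3682 in the mss11 deletion arrays. Such a sum is weighted to the brightest probe sets, such as STE4 (means 8.99 and 9.66). Of all probe sets, 49.1% were higher in the mss11 deletion without overlap. At most 5 of the 22 lay within the range of the background controls in any array, and MF(ALPHA)1 was flat at 5.02 to 5.09. Without mss11 deletion replicate 2 only 2 of the 22 passed as higher, 6 without flo8 deletion replicate 2 and 7 without mss11 deletion replicate 1 or with the median difference subtracted.
REC102, needed for meiotic recombination, read 3.84, 3.73, 3.99 and 3.73 against 5.25 and 4.76. SPO1 and SPS4, both expressed in sporulation, differed by 1.01 and 1.00, at the edge of the rule. Of 19 probe sets for 18 meiotic genes, 11 passed as higher and none as lower, against the same 28.2% and 12.1% over all probe sets. IME1, the master regulator of entry into meiosis, was at -0.38 and did not pass. The count was 6 with the median difference subtracted, 7 without flo8 deletion replicate 2 or 4, and 17 after quantile normalization. The matching shares of all probe sets are not given, so these counts do not describe the meiotic list alone. After quantile normalization its median difference was 0.60, against 0.13 over all probe sets. Without mss11 deletion replicate 2 it was 0.16, against 0.09. The part of the mating-type signal in the other rises was not tested.

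The remaining named members had varied roles. GPH1, glycogen phosphorylase, read 7.99, 7.91, 8.64 and 7.94 against 9.69 and 9.44. GPP2, glycerol-3-phosphatase of the osmotic stress response, read 7.33, 6.51, 7.50 and 6.43 against 8.47 and 8.24. The nearest arrays of the 2 groups lay 0.80 and 0.74 apart, against a median of 0.83 over the members. Lack of overlap was a condition of membership, and 49.1% of all probe sets were higher in the mss11 deletion without overlap. RAX2, a membrane protein that marks sites for bipolar budding in diploids, read 5.63, 5.86, 6.04 and 5.72 against 6.95 and 6.94. CAR2, ornithine aminotransferase of arginine breakdown, read 5.48, 5.31, 5.50 and 5.25 against 6.77 and 6.26. The difference of RAX2 was 1.14 and that of CAR2 1.13.
PMU1 (a putative phosphomutase), PGA3 (a putative cytochrome b5 reductase), FCY21 (a putative purine-cytosine permease) and ATR2 (related to the boron exporter Atr1) were higher by 1.33, 1.16, 1.14 and 1.11. The unstudied reading frames YKL068W-A and YCL048W-A were higher by 1.57 and 1.23. YCL048W-A started at 2.74 to 2.78, within the control range, and reached 4.00 and 3.97.
YOL163W and YOL162W, putative transporters related to the allantoate permease Dal5, are neighbours on the chromosome and were the only adjacent pair among the named members. YOL163W read 8.43, 9.07, 9.80 and 9.28 against 10.74 and 9.88, so that the groups were separated by 0.08, and its difference of 1.16 became 0.73 without mss11 deletion replicate 1. YOL162W was higher by 1.05 ± 0.19 (SE). Of the last named members, ALD2 (aldehyde dehydrogenase) and MLS1 (malate synthase) were higher by 1.05 and 1.06. TPO3 (a polyamine exporter) and DOG1 (2-deoxyglucose-6-phosphate phosphatase) had differences of 1.08 and 1.06 with groups separated by 0.09 and 0.07. DOG1 read 2.58 in flo8 deletion replicate 4 against 4.67 to 5.05 in the other 3 arrays.

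The list for the pathway in which both deleted genes act held 1 member, FLO8, where 0.615% of all probe sets were members. FLO8 is deleted in the group it is compared with, so this count does not describe the response of the pathway. The list of filamentous growth genes had 41 probe sets for 30 of its 32 genes; 6 passed as higher and 9 as lower, with a median of -0.10, where 28.2% of all probe sets passed as higher and 12.1% as lower. These counts include the deleted genes, with both FLO8 probe sets among the higher and MSS11 among the lower. With the median strain difference subtracted they were 3 and 11. FLO11 read 6.82, 6.64, 6.65 and 6.53 against 6.85 and 6.85, which differ by 0.19 ± 0.08 (SE) and did not pass (limma adjusted p = 0.12). PGU1, a secreted polygalacturonase used as a reporter of the filamentation pathway, rose by 0.85 ± 0.13 (SE; limma adjusted p = 0.0076), short of the rule. FLO10, which encodes a flocculin, had 3 probe sets that passed as lower, at -3.41, -2.05 and -1.03, and 1 that passed as higher, at 0.23. For FLO5, another flocculin gene, 1 probe set passed as lower, at -1.99. The flocculin genes are a family of similar sequences, so their probe sets may share signal.
No probe set of the 15 measured nitrogen genes was a member, where 0.615% of all probe sets were. Of the 19, 2 passed as higher and 7 as lower (28.2% and 12.1% over all probe sets), with a median of -0.20. Of these 7, 4 were probe sets of UGA4 (-5.22 and -1.14) and DAL5 (-4.42 and -0.73), permeases for gamma-aminobutyrate and allantoate. Another probe set of each gene did not pass, at 0.01 and 0.07. Leaving out 1 flo8 deletion array gave 4 or 5 higher and 8 to 12 lower for the filamentous list. For the nitrogen list it gave 0 to 2 higher and 5 to 8 lower. The shares of all probe sets under these settings are not given. Without mss11 deletion replicate 1 or 2 the median was -0.08 and -0.03 for the filamentous list and -0.24 and -0.18 for the nitrogen list.

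The differences were narrow in size. Apart from FLO8 they ran from 1.00 to 2.00, with a median of 1.16 (2.24-fold) over the 57. No fold is given for FLO8, whose signal without the gene lay within the control range. Members lay close to the threshold: 19 were within 0.1 above it, and 27 probe sets without overlap were within 0.1 below it. The nearest inside was SPS4 at 1.00. Just outside lay an unnamed probe set at 0.998 and then, as the nearest named ones, VBA2 at 0.99 and MET5 at 0.99. No probe set with a difference of at least 1 was lost for overlap between the groups.
The starting signal covered most of the scale. The flo8 deletion means of the members ran from 2.76 to 11.30, with a median of 6.94 against 8.13 over all probe sets. These signals do not rank transcripts, since probes differ in their response. Members were 0.113% of probe sets with a starting signal below 3, 0.978% from 3 to 5 and 1.27% from 5 to 7. Higher up they were 0.593% from 7 to 9, 0.455% from 9 to 11 and 0.125% from 11 upwards. The 12 sulfur members began between 7.03 and 11.30, and the 21 unnamed members had a median of 5.34. At or below the highest control began 4 members (7.02%), FLO8, YCL048W-A and 2 unnamed, against 12.6% of all probe sets.

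**Figure D4:**
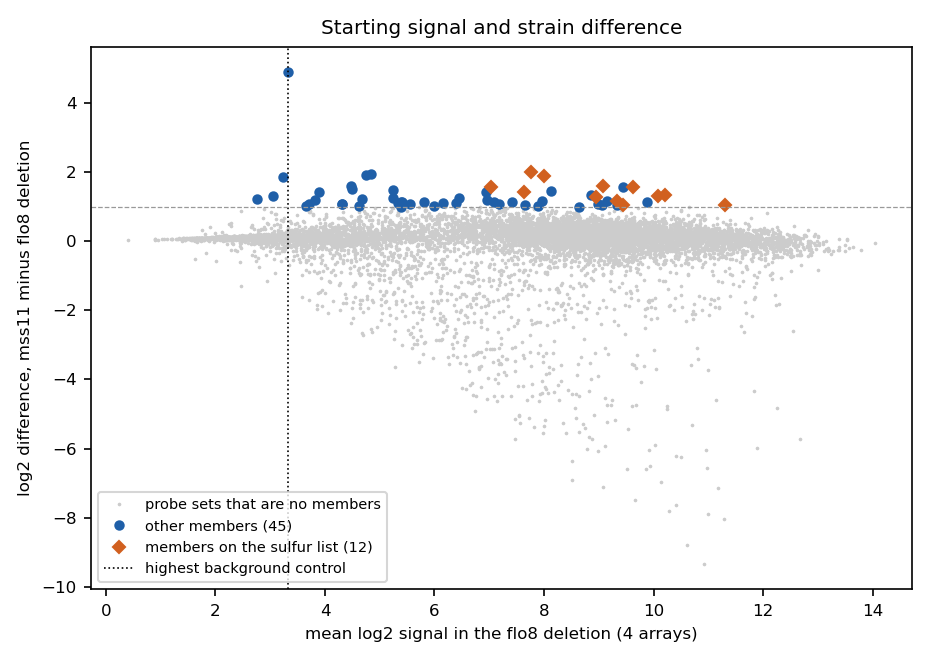
Mean log2 signal in the 4 flo8 deletion arrays against the log2 difference (mss11 minus flo8 deletion) for all non-control probe sets; the dotted line is the highest background control (3.33) and the dashed line the threshold of 1. Members other than FLO8, at 4.90, form a band between 1 and 2 over starting signals from 2.76 to 11.30.

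In Affymetrix naming, a plain _at probe set carries no mark, _s_at matches several transcripts, _f_at a sequence family, _g_at a group of transcripts, and _i_at has fewer probes than the design asks for. Among the members 41 were plain (71.9%, against 81.3% of all probe sets), 7 were _i_at, 5 _f_at and 4 _s_at, and none were _g_at. Seen from the classes, 2.80% of the 250 _i_at probe sets were members, against 0.543% of the 7545 plain ones and 0.612% of the 654 _s_at ones. The 568 probe sets that met the mirrored rule were composed differently, with 218 _s_at (38.4%), 49 _g_at and 8 _i_at. The _i_at class started low, at a median of 4.93 over the class.

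The arrays of the flo8 deletion differed among themselves at these genes. The standard deviation within the flo8 deletion had a median of 0.25 over the members and 0.36 over the sulfur members, against 0.0967 over all probe sets. Replicate 3 was the highest of the 4 in 43 of the 57 members (75.4%), and in 35.3% of all probe sets. Of the mss11 deletion arrays, replicate 1 read above replicate 2 in 34 of the 57 (59.6%) and in 40% of all probe sets. In all 12 sulfur members replicates 1 and 3 both read above replicates 2 and 4, a pattern picked after it had been seen. It held in 25 of the 45 other members, in 12 of the 39 sulfur probe sets that were no members and in 32.2% of all probe sets.
For the sulfur members the median deviation from the flo8 deletion mean was 0.19, -0.30, 0.35 and -0.30 in replicates 1 to 4. The mss11 deletion arrays were at 1.44 and 1.34, beyond all of them. Over all probe sets the same medians lay between -0.01 and 0.01 without FLO8; without MSS11 they were 0.09 and 0.12. What separates replicates 1 and 3 from 2 and 4 is not given by the labels.

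**Figure D5:**
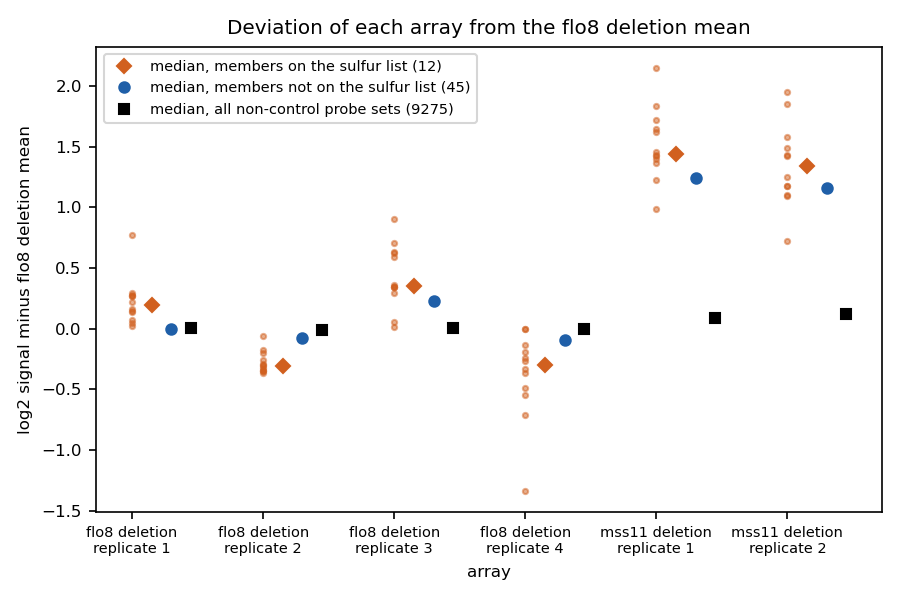
Log2 signal of each array minus the mean of the 4 flo8 deletion arrays. Small dots are the 12 sulfur members and large symbols are medians of the sulfur members, the 45 other members and all 9275 probe sets; among the flo8 deletion arrays, replicates 1 and 3 lie above and 2 and 4 below for the sulfur members.

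The rule was also applied without 1 array, and that array was then read at the probe sets chosen. This is no independent check, since the other arrays serve in both steps. Arrays of a group may be technical replicates, and the 2 mss11 deletion arrays correlated at 0.996 over all probe sets. Without mss11 deletion replicate 2 the rule took 71 probe sets, and in replicate 2 all 71 lay above the 4 flo8 deletion arrays, as did 57.0% of all probe sets. Their median difference was 1.21 in the arrays used and 1.05 in replicate 2, and 38 of the 71 were at least 1 there, against 0.658% of all probe sets. Without mss11 deletion replicate 1 it took 61, of which 60 lay above the flo8 deletion arrays in replicate 1 (53.8% of all probe sets), at a median of 1.10. Without flo8 deletion replicate 3 it took 73, of which 72 read lower in that array than in both mss11 deletion arrays (60.7% of all probe sets). The median difference from replicate 3 was 0.89, and 22 of the 73 reached 1, as did 0.474% of all probe sets. For the other 3 flo8 deletion arrays that median was 1.14 to 1.29. Replicate 3 thus stood nearest to the mss11 deletion at the probe sets chosen without it. The same held over all probe sets, where it correlated at 0.973 and 0.968 with mss11 deletion replicates 1 and 2. For the other flo8 deletion arrays these correlations were 0.957 to 0.959 and 0.950 to 0.953.

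Signal at the 5′ end minus that at the 3′ end was measured for 3 genes and separated the strains in 2 of them. ACT1 5′ minus 3′ signal was -0.63 to -0.40 in the flo8 deletion and -2.46 and -4.97 in the mss11 deletion, and that of SRB4 -2.39 to -1.54 against -5.12 and -5.02. For SPT15 it was -0.82 to -0.58 against -0.69 and -1.52, so that 1 of the mss11 deletion arrays lay within the flo8 deletion range. Of the flo8 deletion arrays, replicate 3 had the lowest value for ACT1 (-0.63) and SRB4 (-2.39). For SPT15 it did not (-0.63, against -0.82 in replicate 1). The median of 10 ribosomal RNA controls was 4.07, 4.64, 6.45 and 5.06 in the flo8 deletion and 3.61 and 3.90 in the mss11 deletion. The part of these measures in the rises, and in the position of flo8 deletion replicate 3, was not tested. With the median strain difference of 0.11 subtracted, 37 members kept the rule, 10 of the 12 sulfur members among them.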

How the data were processed

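The authors deposited 1 normalised log2 value per probe set and array. The submitters' processing notes name RMA as well as GCRMA; which was used, which arrays were normalised together and any filter are not stated. That the scale is log2 was settled from the values: the highest would be 17080 as a linear signal. The table had 9335 rows without missing values, 60 of them control probe sets, which were left out of the rule and the tests. There are no detection calls, and the number of arrays (4 and 2) limits the precision.

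Titles gave the groups. Nothing says that arrays are separate cultures, so a p-value here measures only array-to-array spread, which may be technical. The model was limma 3.58.1 (R 4.3.3; lmFit, eBayes, no covariate, 4 residual degrees of freedom) over 9275 probe sets with Benjamini-Hochberg adjustment at 0.05; "passed", "rose" and "fell" refer to this test, except that members were chosen on the same contrast. The fit was tested on simulated data. Counts and medians were computed in Python 3.11.15.

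Genes came from the platform annotation; symbols matched by gene number to the R64 assembly of S288C. No coordinates are given, because no source used here gives the array's build. The naming rule took the 25 largest named members and every named member with its lowest mss11 deletion value at least 1 above its highest flo8 deletion value, 26 in all. The members and lists were chosen with earlier results of these data known; the filamentous and nitrogen lists were written before, and the sulfur, mating-type and meiotic lists and the 28 background controls after, the values by gene were seen. Alternatives were scalings, a filter on the dimmest 25% of probe sets, a stricter rule, an intensity trend, array weights, a replicate block and leaving out each array.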

Additional observations from a re-analysis of the deposited data

Results flagged for a closer look

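Among the 26 named members, 1 had an array standing apart from the others of its group of 4, by a criterion that chance meets in about 1 of 20 groups. GPH1, glycogen phosphorylase, read 8.64 in flo8 deletion replicate 3, against 7.91 to 7.99 in the other 3 flo8 deletion arrays. Its mss11 deletion values of 9.69 and 9.44 lay above all of them.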

How the results depend on the processing

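The rule took 57 probe sets as deposited, 50 with arrays centred on their medians, 48 without the dimmest 25%, 37 with the median strain difference subtracted and 150 after quantile normalization, of which 52 were among the 57. A gap of at least 1 between the nearest arrays left 15. Leaving out each array gave 51 to 73. Members past limma's threshold numbered 53 as deposited, 47 to 53 under the other scalings, filter and variance models, and 45 to 55 with a flo8 deletion array left out. Fewer passed with an mss11 deletion array left out. Nothing can be read from these counts, since the members were chosen on the same contrast. As deposited, 28.2% of all probe sets passed as higher, and the share under the other settings is not given. With the sample number as a replicate block, which leaves 1 residual degree of freedom, 55 passed. The numbers were not taken to pair cultures, because no label states that they do. Deviations of same-numbered arrays correlated at 0.05 and -0.14 across probe sets. These values cannot decide it, since the deviations of 2 mss11 deletion arrays from their own mean always mirror each other. The median rise was 1.06 to 1.38 under the scalings, 1.15 to 1.31 with an array left out and 1.14 without the sulfur members, a setting added after the data were seen. None of the 26 named members changed sign under these settings. The rule left little room for that, since it asked for a rise of at least 1 without overlap. With an array left out or the median strain difference subtracted, a change of sign was not possible.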
